A study of Mus musculus with 13 samples.

Results

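The circadian clock genes described here are 10 named genes: Arntl, Clock, Per1, Per2, Per3, Cry1, Cry2, Nr1d1, Nr1d2 and Dbp. They were chosen by name, as the core oscillator and its best-known output gene, and the rule uses no measured value. The table listed 24015 genes, of which 11876 reached the level needed for testing (1 TPM in 3 libraries), the 10 clock genes included. TPM is the share of a gene among all transcripts of a library after correction for transcript length, so levels of different genes may be set side by side.

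RNA of whole quadriceps muscle lysates of C57BL/6 mice was sequenced in 13 libraries, in 4 groups and 2 batches as labelled. In batch 1, 4 libraries came from young animals of 3 months and 3 from aged animals of over 24 months, all given vehicle. In batch 2, all animals were aged: 3 libraries followed vehicle and 3 followed SW033291 at 5 mg/kg, a compound that blocks 15-PGDH, the enzyme that breaks down prostaglandin E2. All animals, controls included, received daily intraperitoneal injections for 4 weeks, the vehicle being a mixture of ethanol, Cremophor EL and dextrose in water. Young mice stood in batch 1 only and SW033291 in batch 2 only, and no young mice given SW033291 were analysed here. Whether libraries stand for different animals is not said in the labels. All p-values below therefore reflect the spread between libraries, which may be technical. For the hour of harvest or of injection, no value is given in the sources used here.

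The clock is a transcriptional loop that runs in nearly every cell, muscle fibres included. ARNTL (also called BMAL1) and CLOCK bind E-box sequences and switch on the Per and Cry genes, whose proteins return to the nucleus and hold ARNTL and CLOCK back. A second arm is formed by NR1D1 and NR1D2 (REV-ERB alpha and beta), which repress Arntl through ROR elements, and DBP, a factor that binds D-boxes, carries the rhythm to output genes. Levels of these genes change over the day, and Arntl and Dbp peak at nearly opposite times.

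Promoter sequences were taken from RefSeq on GRCm38.p6, which is not the build of the submitters' notes. Each covers 300 bases, 250 before to 50 after an annotated start, and 13 such sequences were found for 9 of the 10 genes, Per2 having no entry. The 4 shown are those in which a clock motif was matched, since they carry letters that the loop's own factors bind. Both strands were searched for the E-box CACGTG, the D-box TTATGTAA or TTACGTAA, the ROR element core TAGGTCA or TGGGTCA, and the cAMP response element TGACGTCA. Capitals mark the matched letters, and each sequence runs 5′ to 3′ along its gene, from chr11:69098699-69098998 (forward strand) for Per1, chr10:85185005-85185304 (reverse strand) for Cry1, chr4:151044616-151044915 (reverse strand) for Per3 and chr7:113207261-113207560 (forward strand) for the second Arntl start.
Per1: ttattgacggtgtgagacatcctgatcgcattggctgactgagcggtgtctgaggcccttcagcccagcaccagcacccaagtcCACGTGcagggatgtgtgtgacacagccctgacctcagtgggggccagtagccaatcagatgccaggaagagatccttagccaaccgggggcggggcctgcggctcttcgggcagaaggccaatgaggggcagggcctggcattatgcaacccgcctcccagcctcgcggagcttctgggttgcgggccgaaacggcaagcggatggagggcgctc
Cry1: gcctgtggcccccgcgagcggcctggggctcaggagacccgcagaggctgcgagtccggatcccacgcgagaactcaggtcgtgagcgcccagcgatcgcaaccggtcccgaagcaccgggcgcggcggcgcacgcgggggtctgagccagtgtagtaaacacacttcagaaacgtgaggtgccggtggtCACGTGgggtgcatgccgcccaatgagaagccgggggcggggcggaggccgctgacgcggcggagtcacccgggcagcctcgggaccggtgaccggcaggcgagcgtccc
Per3: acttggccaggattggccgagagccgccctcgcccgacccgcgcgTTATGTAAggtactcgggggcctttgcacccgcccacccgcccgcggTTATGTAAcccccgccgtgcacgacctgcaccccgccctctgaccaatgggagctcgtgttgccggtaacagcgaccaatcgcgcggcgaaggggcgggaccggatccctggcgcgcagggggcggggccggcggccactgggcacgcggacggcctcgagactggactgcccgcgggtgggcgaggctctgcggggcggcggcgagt
Arntl: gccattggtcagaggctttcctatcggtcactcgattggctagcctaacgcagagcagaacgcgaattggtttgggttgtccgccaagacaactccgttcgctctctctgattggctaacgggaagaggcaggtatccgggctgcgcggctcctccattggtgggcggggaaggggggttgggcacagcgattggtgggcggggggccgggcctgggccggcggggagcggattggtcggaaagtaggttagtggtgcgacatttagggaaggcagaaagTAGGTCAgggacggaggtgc

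The E-box, the target of ARNTL and CLOCK, began at base 85 of the Per1 sequence and at base 191 of the Cry1 sequence. Of 32544 promoters of the same length, 7.17% held the same letters. Per3 held the D-box, the letters that DBP binds, at base 46 and again at base 93, against 1.05% of all promoters with a match. The ROR core in Arntl, the kind of letters that NR1D1 binds, began at base 281, after the start site, and was found in 6.48% of all promoters. No cAMP response element was matched in these 13 windows, against 1.80% of all promoters. A match describes letters only, and says nothing of binding in these muscles.

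The 10 genes spanned a wide range of levels. Dbp was the most abundant, with 66.2 to 193 TPM over the 13 libraries, followed by Nr1d1 with 28.2 to 117 TPM. Clock was the least abundant, with a median of 3.47 TPM over the 12 libraries other than aged vehicle batch 1 replicate 4, and Cry1 stayed between 6.10 and 10.8 TPM in all 13. Muscle was the main source of the RNA by its markers: Acta1, skeletal actin, stood at 24221 to 51313 TPM.

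Aged vehicle batch 1 replicate 4 stood apart and touches most results that follow. Its title begins with Aged4, while the others of its group begin with AV2 and AV3, and the labels give no reason. This library had the highest level of the 13 libraries in 3 of the 10 clock genes (Arntl, Clock and Nr1d2) and the lowest in 4 (Per1, Per2, Cry2 and Dbp). Over all tested genes it was highest in 19.8% and lowest in 12.4%. Its S100a9, a neutrophil transcript, was at 736 TPM, and the summed level of the 8 neutrophil markers was 1751 TPM, against 0.88 to 2.92 TPM in the young group, where 4 of the 8 were at 0 in every library. In aged vehicle batch 2 replicate 2, S100a9 reached 290.2 TPM, and SW033291 replicate 4 had 78.2 TPM. The other 10 libraries had at most 6.39 TPM. The 8 red cell markers summed to 3760 TPM in that library, against 260 to 2181 TPM elsewhere, and its Acta1 level of 24221 TPM was the lowest of all. Pearson correlations of log2(TPM + 1) across genes with the other libraries of its group were 0.946 and 0.952, against 0.967 to 0.991 for all other pairs within a group. The part of these cells or of this library in the clock results was not tested, and in whole tissue fewer cells of a type and less RNA per cell cannot be told apart. Age differences of the 10 genes are given with and without this library, and their other results without it only in part. Results on other gene lists are also given without it where a count of calls changed.

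**Figure D1:**
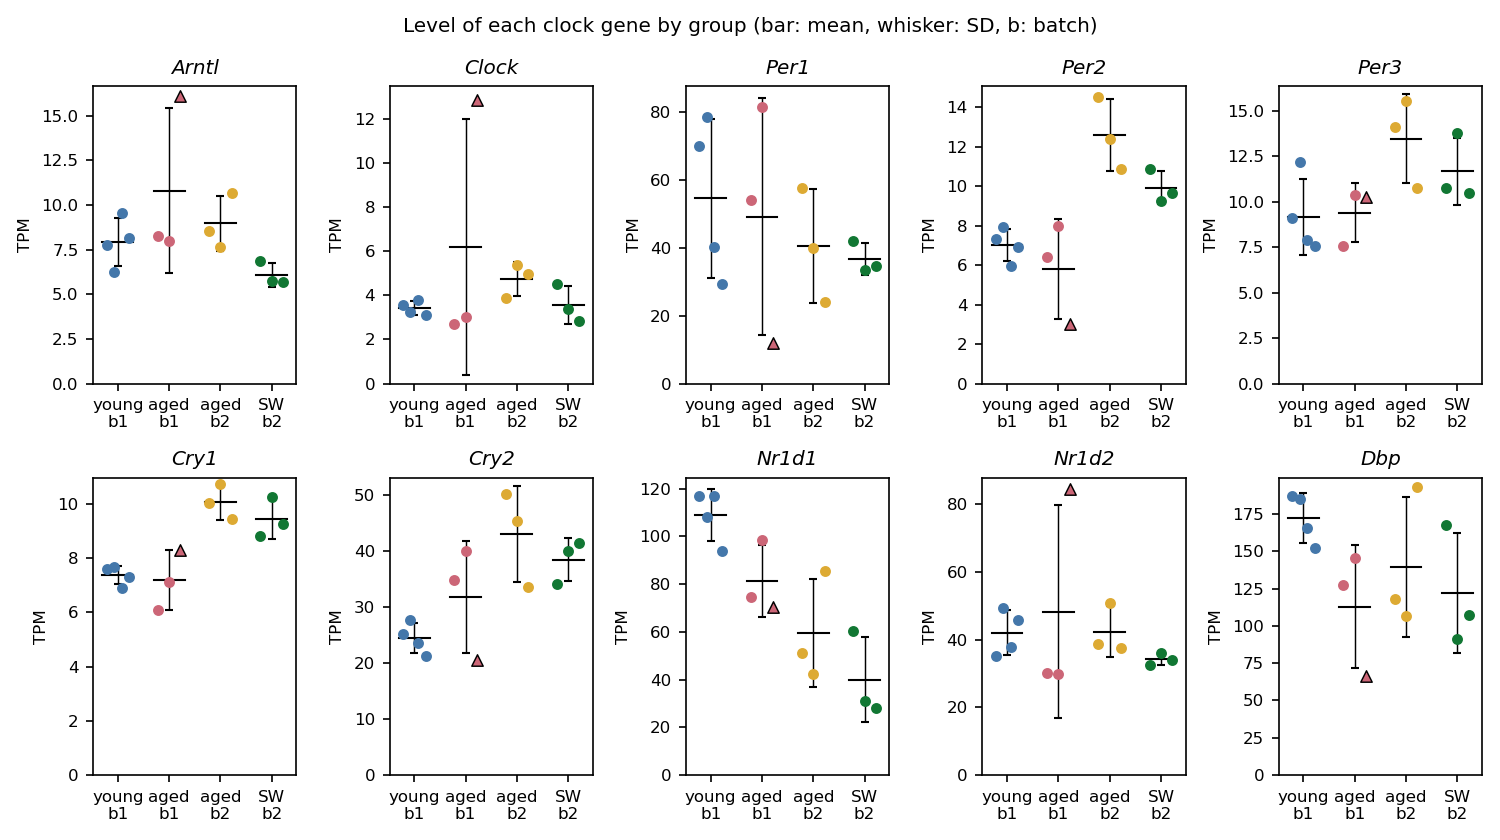
Level of each of the 10 clock genes in TPM (vertical axis, from 0) in the 13 libraries by group: young and aged vehicle of batch 1 (b1), aged vehicle and aged SW033291 of batch 2 (b2). Points are libraries, bars group means, whiskers SD, and the outlined triangle is aged vehicle batch 1 replicate 4, which lies highest in Arntl, Clock and Nr1d2 and lowest in Per1, Per2, Cry2 and Dbp.

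The activator Arntl, the partner of CLOCK and the gene without which the loop stops, was at 7.77, 6.25, 9.56 and 8.13 TPM in the young vehicle libraries. Aged vehicle libraries of batch 1 held 8.29, 7.98 and 16.1 TPM, those of batch 2 held 8.57, 7.66 and 10.7 TPM, and SW033291 libraries 6.84, 5.72 and 5.70 TPM. The single value of 16.1 TPM was 1.51 times the next highest of all 13, and the 3 SW033291 libraries lay below all 3 vehicle libraries of their batch. Clock, the other activator, was at 3.55, 3.24, 3.80 and 3.09 TPM in young vehicle. In aged vehicle of batch 1 it was at 2.70, 2.99 and 12.85 TPM, in batch 2 at 3.89, 5.38 and 4.97 TPM, and with SW033291 at 4.50, 3.39 and 2.82 TPM. Only replicate 4 of the aged batch 1 group was far from the rest, at 2.39 times the next highest library.

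Among the repressors, Per1, an immediate responder to hormones and light as well as a clock gene, varied most. Its levels were 70.2, 78.7, 40.4 and 29.5 TPM in young vehicle and 54.1, 81.5 and 12.1 TPM in aged vehicle of batch 1. Batch 2 held 57.7, 40.1 and 24.1 TPM with vehicle and 42.1, 33.45 and 34.8 TPM with SW033291. The groups overlapped throughout, and the lowest and highest libraries of the aged batch 1 group were also the lowest and highest of all 13. Per2, its close relative, was at 7.31, 7.91, 5.96 and 6.92 TPM in young vehicle and at 6.40, 8.0 and 3.04 TPM in aged vehicle of batch 1. In batch 2, the vehicle libraries held 14.5, 12.4 and 10.86 TPM and the SW033291 libraries 10.85, 9.25 and 9.63 TPM. Every Per2 level of batch 2 was above every level of batch 1. Per3, the third family member and the one whose promoter holds the D-box letters shown above, was at 9.09, 12.2, 7.89 and 7.54 TPM in young vehicle and 7.55, 10.4 and 10.3 TPM in aged vehicle of batch 1. In batch 2 it was at 14.1, 15.5 and 10.8 TPM with vehicle and 10.8, 13.8 and 10.45 TPM with SW033291, so that batch 2 was on the high side, with overlap.

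Cry1, a repressor whose promoter holds the E-box letters, was the steadiest of the 10. It was at 7.62, 7.67, 6.92 and 7.32 TPM in young vehicle, 6.10, 7.14 and 8.32 TPM in aged vehicle of batch 1, 10.05, 10.75 and 9.45 TPM in aged vehicle of batch 2 and 8.81, 10.2 and 9.25 TPM with SW033291. Both groups of batch 2 lay above all 7 libraries of batch 1. Cry2, its more abundant relative, was at 25.2, 27.6, 23.6 and 21.2 TPM in young vehicle and at 34.9, 40.0 and 20.6 TPM in aged vehicle of batch 1. Batch 2 held 50.2, 45.4 and 33.6 TPM with vehicle and 34.1, 39.9 and 41.4 TPM with SW033291. Apart from replicate 4 of the aged batch 1 group, every aged library was above every young one.

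In the second arm of the loop, Nr1d1, a repressor of Arntl, was at 117, 108, 117 and 93.9 TPM in young vehicle. Its levels were 74.5, 98.5 and 70.5 TPM in aged vehicle of batch 1, 51.1, 42.2 and 85.3 TPM in aged vehicle of batch 2 and 60.4, 31.2 and 28.2 TPM with SW033291. The group means thus ran from 109 ± 10.9 TPM (SD, n = 4) in young vehicle through 81.2 ± 15.1 and 59.5 ± 22.8 TPM to 40.0 ± 17.8 TPM (SD, n = 3 each) with SW033291, and each group overlapped the next. Nr1d2, the second repressor of this kind, was at 35.3, 49.3, 37.7 and 45.9 TPM in young vehicle, 30.2, 29.9 and 84.5 TPM in aged vehicle of batch 1, 38.7, 50.95 and 37.5 TPM in aged vehicle of batch 2 and 32.6, 36.0 and 34.0 TPM with SW033291. Replicate 4 was again 1.66 times above the next highest library, and the other 2 libraries of its group were the lowest of the 13.

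Dbp, the output factor, was at 187, 185, 166 and 152 TPM in young vehicle. Aged vehicle was at 128, 145 and 66.2 TPM in batch 1 and at 118, 107 and 193 TPM in batch 2, and SW033291 at 168, 91.3 and 107 TPM. All 3 aged libraries of batch 1 were below all 4 young ones, while batch 2 held both the single highest value and values near the low end.

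**Figure D2:**
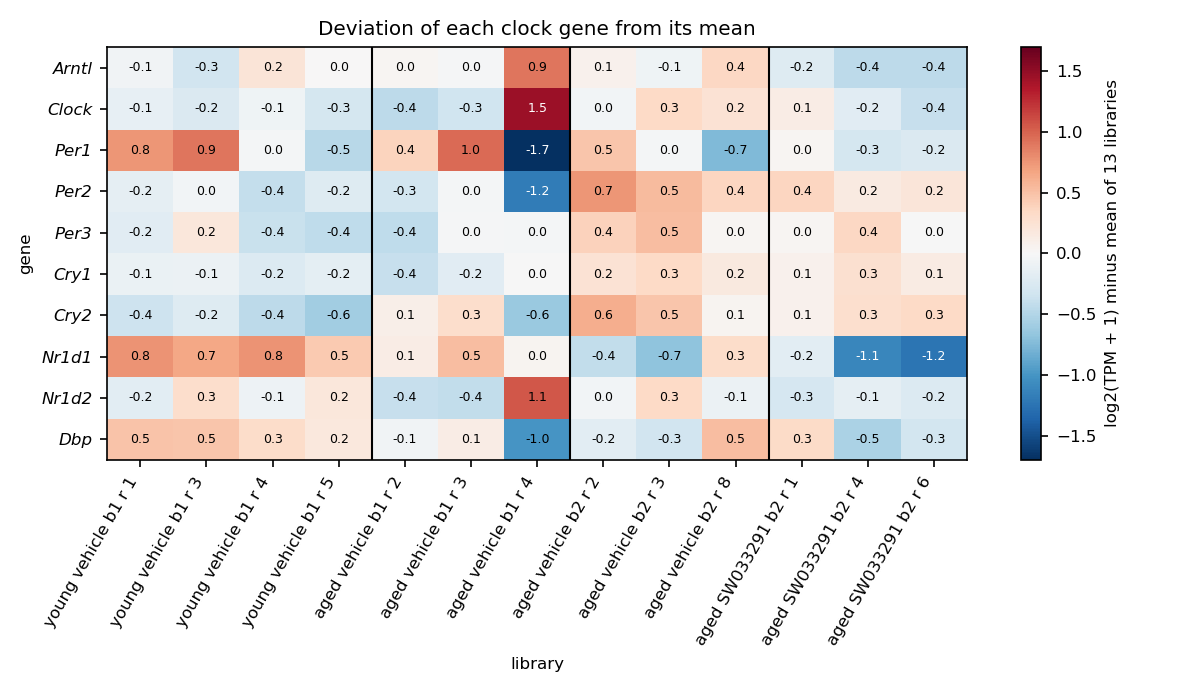
Deviation of each clock gene (rows) in each library (columns) from its mean over the 13 libraries, in log2(TPM + 1) units, with the 4 groups divided by lines, b for batch and r for replicate. The column of aged vehicle batch 1 replicate 4 holds the strongest values in both directions, 1.5 for Clock and -1.7 for Per1.

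The spread within groups differed between the genes. The residual SD of log2(TPM + 1) after group means was 0.82 for Per1, above that of 98.2% of all tested genes, and 0.12 for Cry1, above that of only 5.74%. The median of all tested genes was 0.25. Clock had 0.53 (above 92.9% of genes), Nr1d2 0.43, Dbp 0.42 and Nr1d1 0.40, while Per3 was at 0.25. Without aged vehicle batch 1 replicate 4, Clock and Nr1d2 dropped to 0.18 each, below the median of 0.22 then found, whereas Nr1d1 stayed at 0.41 and Per1 was at 0.53. The ratio of Dbp to Arntl, genes that peak at nearly opposite times, was 4.10 in that library and between 13.8 and 29.6 in the other 12.

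The comparison of aged with young vehicle in batch 1 asks what age does to muscle. None of the 10 clock genes passed an adjusted p of 0.05 with limma, where 54 of the 11876 tested genes (0.455%) passed and 1178 had an unadjusted p under 0.05. Of the 10, only Dbp had an unadjusted limma p under the same threshold. Its level was 173 ± 16.7 TPM (SD, n = 4) in young and 113 ± 41.5 TPM (SD, n = 3) in aged muscle, a log2 difference of -0.68 (SE 0.27, 95% interval -1.26 to -0.09) that corresponds to a 1.60-fold lower level on the log2(TPM + 1) scale, with a limma adjusted p of 0.387. Dbp was the only clock gene whose aged and young libraries did not overlap, and 11.6% of all tested genes had groups that did not overlap.

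Differences of the other members were smaller or less even. Clock was at 0.42 (SE 0.35) and Arntl at 0.35 (SE 0.22), Cry2 at 0.32 (SE 0.20), and Nr1d1 at -0.43 (SE 0.26), Per1 at -0.41 (SE 0.51) and Per2 at -0.31 (SE 0.23), all log2 differences of aged minus young. Per3 (0.04), Nr1d2 (0.03) and Cry1 (-0.04) were near 0. Their limma adjusted p-values ran from 0.665 to 0.987. Of the 10, 5 were positive and 5 negative, with a median of -0.01, beside a median of 0.06 over all tested genes.

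Leaving out aged vehicle batch 1 replicate 4 turned the direction of 5 of these values. Clock went to -0.20, Per1 to 0.38, Per2 to 0.03, Per3 to -0.02 and Nr1d2 to -0.46 (SE 0.15, limma adjusted p = 0.222). Dbp went to -0.33, Nr1d1 to -0.34, Cry1 to -0.14 and Arntl to 0.05, while Cry2 went to 0.60 (SE 0.16, limma adjusted p = 0.113). None of the 10 passed in this fit either, in which 92 genes (0.775%) did. The authors' deposited table of aged against young vehicle is labelled without a batch. Its aged libraries may thus include those of batch 2, here and wherever it is quoted below, and its values may not be like for like. It lists 813 genes with an adjusted p of up to 0.0999. Nr1d1 was the only one of the 10 in it, with a log2 fold change of -0.75 (SE 0.24) and a DESeq2 adjusted p of 0.0475.

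**Figure D3:**
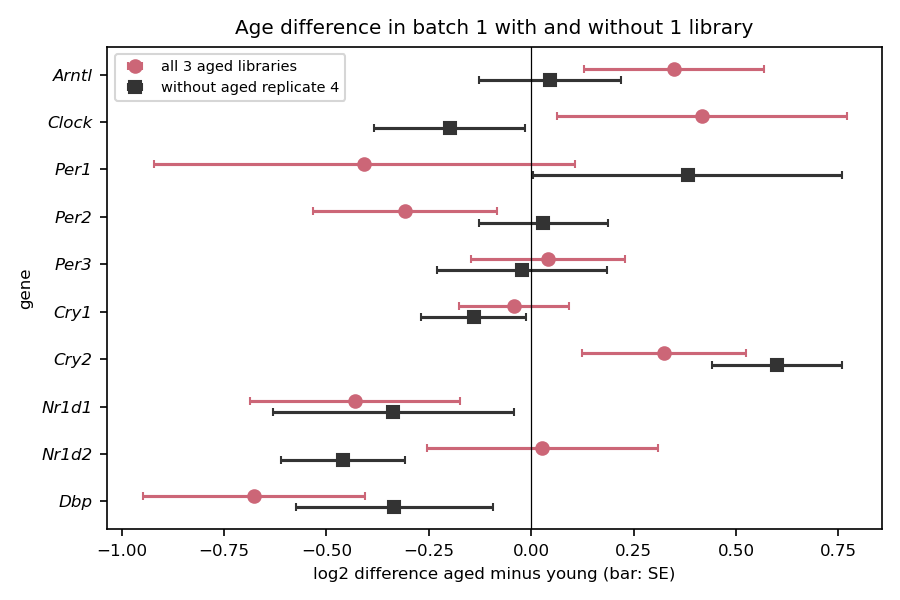
Log2 difference of aged minus young vehicle in batch 1 (horizontal axis, log2(TPM + 1) units) for the 10 clock genes, with all 3 aged libraries (circles) and without aged replicate 4 (squares). Bars are SE; Clock, Per1, Per2, Per3 and Nr1d2 change sides of 0, while Dbp and Nr1d1 stay below and Cry2 above it.

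The comparison of SW033291 with vehicle in aged muscle of batch 2 asks what inhibition of 15-PGDH does. None of the 10 clock genes passed with limma, and none of all 11876 genes did (0%), although 1221 of all genes and none of the 10 had an unadjusted p under 0.05. With log2(TPM + 0.1), limma called 4 genes, and without the variance trend 1. Nr1d1 was at 40.0 ± 17.8 TPM with SW033291 against 59.5 ± 22.8 TPM with vehicle (SD, n = 3 each), a log2 difference of -0.58 (SE 0.27, limma adjusted p = 0.487). Arntl was at 6.09 ± 0.65 against 8.97 ± 1.54 TPM (SD, n = 3 each), a log2 difference of -0.48 (SE 0.23, 95% interval -0.99 to 0.02) with a limma adjusted p of 0.496.

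The remaining log2 differences lay between -0.34 for Clock and -0.06 for Per1. All 10 were negative with a median of -0.24, but the median of all tested genes was itself -0.13 and only 28.9% of genes were positive. Scaling by the median of ratios moved the median of all genes to near 0 and put Per1 at 0.08, Cry1 at 0.05 and Cry2 at 0.00. Not all 10 were thus negative under that scaling. Arntl, Per2 and Nr1d2 had SW033291 libraries all below the vehicle libraries, as had 1796 of all 11876 tested genes. A further 231 genes had them all above, and both directions together made 17.1%. For Per2 the nearest libraries of the 2 groups hardly differed, at 10.85 TPM with SW033291 and 10.86 TPM with vehicle. Of the 10, 9 had in the authors' deposited SW033291 table a negative log2 fold change, among them Arntl at -0.36 (DESeq2 p = 0.237) and Nr1d1 at -0.39 (DESeq2 p = 0.42), while Cry1 was at 0.07. The share of negative values over all genes of that table was not counted, so the 9 have no background beside them.

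Within the vehicle group of batch 2, replicate 8 differed from the other 2 libraries in several clock genes. Its Nr1d1 was at 85.3 TPM against 51.1 and 42.2 TPM, its Dbp at 193 TPM against 118 and 107 TPM, and its Per1 at 24.1 TPM against 57.7 and 40.1 TPM. Without it, the SW033291 difference of Nr1d1 was -0.29 and that of Dbp turned to 0.07. Glucocorticoid-responsive transcripts were lower in the same library: Fkbp5, a chaperone induced by glucocorticoids, was at 34.05 TPM against 64.2 and 61.6 TPM, Tsc22d3 at 283 TPM against 548 and 528.0 TPM, and Zbtb16 at 17.5 TPM against 52.7 and 67.5 TPM. All 9 genes of the glucocorticoid list were lower in it than in both other vehicle libraries of batch 2. In batch 1, replicate 4 of the aged group was less even: Fkbp5 (14.1 TPM) and Tsc22d3 (146 TPM) were the lowest of all 13, while Klf9, another gene of the list, was at 78.0 TPM, the highest of batch 1. The part of these responses in the clock levels was not tested.

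**Figure D4:**
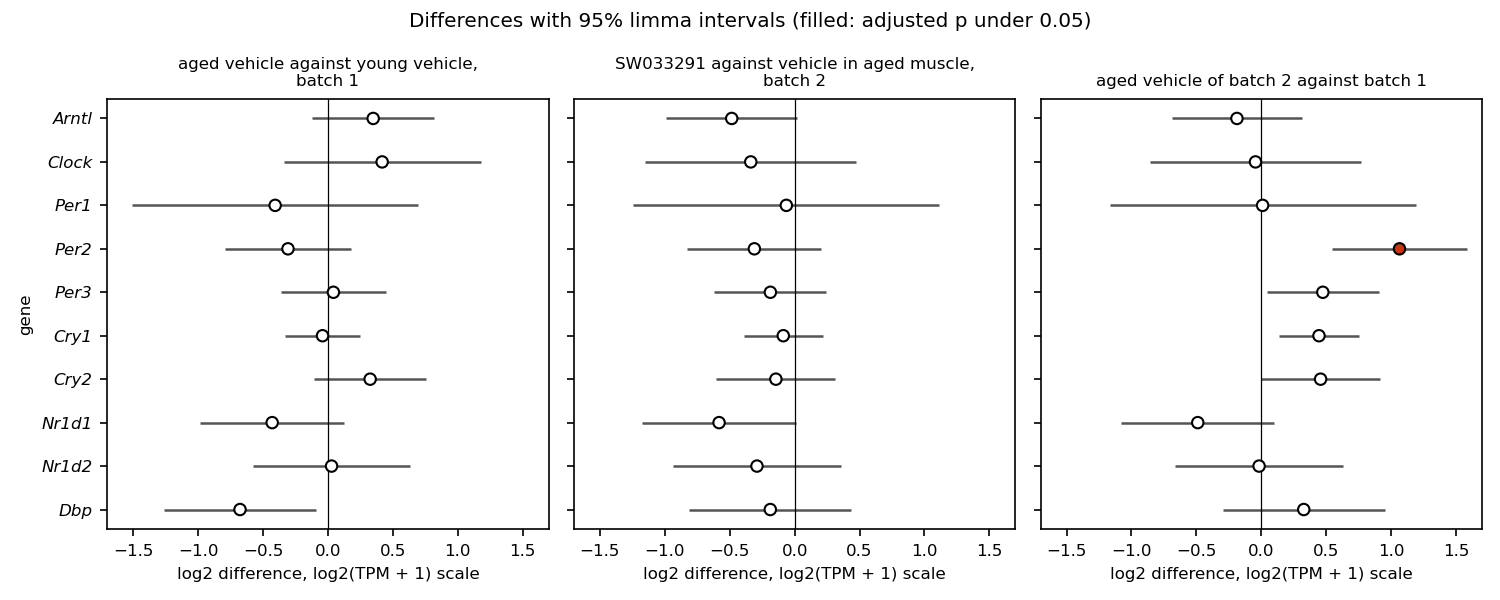
Log2 differences of the 10 clock genes in the 3 comparisons (horizontal axis, log2(TPM + 1) units) with 95% limma intervals. The only filled point, a limma adjusted p under 0.05, is Per2 in aged vehicle of batch 2 against batch 1, at 1.06.

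Aged vehicle mice stood in both batches, and their comparison shows how far the clock genes move between batches of like animals. This comparison shares its libraries with both others, so its values are set beside theirs and not counted as separate support. Per2 rose: it was at 12.6 ± 1.83 TPM in batch 2 against 5.81 ± 2.53 TPM in batch 1 (SD, n = 3 each), a log2 difference of 1.06 (SE 0.24, 95% interval 0.55 to 1.58), 2.09-fold, with a limma adjusted p of 0.0383. It was 1 of 10 clock genes to pass, where 267 of all tested genes (2.25%) passed. Over its alternatives the limma adjusted p of Per2 ran from 0.0143 to 0.348. The call was lost in 10 of 15 alternatives. Among settings of the fit, these were median-of-ratios scaling (adjusted p = 0.0798), quantile normalization (0.105), no filter on low values (0.0637), no variance trend (0.0547), a limma fit of the 2 groups alone (0.348) and the replicate number as a block (0.109). Among left-out libraries, they were aged vehicle batch 1 replicate 2 (limma adjusted p = 0.103), batch 2 replicate 2 (0.142), batch 2 replicate 3 (0.152) and the 3 libraries with many neutrophil transcripts together (0.0525). Replicate numbers, used as the block, come from the library titles. In batch 2 these number libraries over both groups, and no label says that a shared number marks a pairing.

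Cry1 was at 0.44 (SE 0.14, limma adjusted p = 0.115), Per3 at 0.47 (SE 0.20), Cry2 at 0.46 (SE 0.21) and Nr1d1 at -0.49 (SE 0.27). Per2, Per3 and Cry1 did not overlap between the batches, against 16.5% of all genes. Without aged vehicle batch 1 replicate 4, Per2 was at 0.73 (limma adjusted p = 0.0143) and Cry1 at 0.54 (limma adjusted p = 0.0205), and both passed, but 1643 of all genes (13.8%) passed as well. What differed between the batches is not given in the sources used here, so that its parts cannot be told apart. Of 9 muscle fibre markers 1 passed: Myh4, the fast IIb myosin heavy chain, was at 30494 TPM in batch 2 against 13131 TPM in batch 1 (log2 difference 1.21, limma adjusted p = 0.00606).

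When the aged vehicle libraries of both batches were pooled and aged vehicle batch 1 replicate 4 was left out, a setting chosen after seeing the data, Cry2 was higher than in young vehicle by 0.71 (SE 0.13, limma adjusted p = 0.0111), and 383 genes (3.22%) passed. With that library kept, the value was 0.55 (adjusted p = 0.145). In this pooled fit age and batch are mixed, since all young libraries came from batch 1.

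Of the further clock activators 3 were tested, and none passed in any comparison with limma. Rora, an activator of Arntl, passed between batches when aged vehicle batch 1 replicate 4 was left out (log2 difference 0.80, limma adjusted p = 0.0168). In that fit 13.8% of all tested genes passed. It was at 35.2 TPM in aged vehicle batch 1 replicate 4 and between 10.5 and 25.6 TPM elsewhere. That library thus held the highest level of Rora as well as of Arntl, and of 19.8% of all tested genes. A link between Rora and Arntl was not tested.

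The further repressors were Bhlhe40, Bhlhe41, Nfil3 and Ciart, which the list of 5 names also held under its older name Gm129. All 4 genes were tested and none passed in any comparison. Bhlhe41 (DEC2), which competes with the activators for E-boxes, was at 31.0, 25.9, 28.2 and 29.1 TPM in young vehicle and at 19.8, 19.6 and 16.2 TPM in aged vehicle of batch 1, with no overlap. Its log2 difference was -0.60 (SE 0.13) with a limma adjusted p of 0.0631, and in the authors' deposited table it was -0.69 (adjusted p = 0.000234). Ciart, a repressor of ARNTL and CLOCK, was at 7.50 TPM in aged vehicle batch 1 replicate 4 and between 19.4 and 23.9 TPM in the other 2 libraries of its group. Its SW033291 levels were 20.8, 7.94 and 4.08 TPM. The list's median log2 differences were 0.06 with age, -0.29 with SW033291 and 0.11 between batches, where the medians of all genes were 0.06, -0.13 and 0.11. Without aged vehicle batch 1 replicate 4, the list's median was 0.31 with age and -0.10 between batches, beside 0.01 and 0.14 for all genes.

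Hlf and Tef belong with Dbp to the PAR bZIP factors, which bind the D-box. Hlf was at 7.15, 7.85, 7.50 and 6.46 TPM in young vehicle and at 4.02, 3.82 and 4.91 TPM in aged vehicle of batch 1. The log2 difference was -0.65 (SE 0.14, limma adjusted p = 0.0598). Without aged replicate 4 it was -0.74 (limma adjusted p = 0.0302), and Hlf passed, as did 0.775% of all tested genes. The authors' deposited table gives -0.60 (adjusted p = 0.0157). In batch 2 Hlf was at 7.21, 6.91 and 6.83 TPM with vehicle and 5.10, 4.23 and 4.11 TPM with SW033291 (log2 difference -0.55, limma adjusted p = 0.394). On average Tef was at 181 TPM in the young and 175 TPM in the aged group of batch 1, and at 241 TPM in aged vehicle of batch 2 (log2 difference between batches 0.46, limma adjusted p = 0.0246), and it passed. Both passed between batches with aged vehicle batch 1 replicate 4 left out, Tef at 0.48 (limma adjusted p = 0.00839) and Hlf at 0.70 (limma adjusted p = 0.0109). In that fit 13.8% of all tested genes passed.

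The list of clock protein modifiers held mostly kinases, ubiquitin ligase subunits and a deubiquitinase, beside Sirt1, Timeless and Tipin. Its genes numbered 15 with 14 tested, and none passed in the 3 comparisons. Their medians were 0.15, -0.25 and 0.18. Without aged vehicle batch 1 replicate 4, 3 passed between batches, where 13.8% of all tested genes passed. They were the casein kinase Csnk1a1 (0.65), the ligase subunit Fbxw11 (0.39) and the kinase subunit Prkaa2 (0.57). The medians without that library were 0.02 with age and 0.37 between batches. With SW033291, Fbxw11, a subunit of a PER ubiquitin ligase, had the smallest p (28.1 against 40.3 TPM, log2 difference -0.51, SE 0.12, limma adjusted p = 0.344). Usp2, a deubiquitinase that itself cycles, was at 49.6 TPM in aged vehicle batch 1 replicate 4 and between 139 and 192 TPM in the other 12. Of 12 rhythmic output genes of muscle, Hk2, hexokinase 2, was the 1 to pass, between batches (165 against 87.1 TPM, log2 difference 0.92, limma adjusted p = 0.0249). The medians of this list were 0.02, -0.04 and 0.15. Without aged vehicle batch 1 replicate 4, Tcap, a protein of the sarcomere's Z-disc, passed with age (0.59, limma adjusted p = 0.0141), as did 0.775% of all genes. Hk2 (0.73) and Nampt (0.48) then passed between batches, as did 13.8% of all genes. In the authors' deposited table of age, Tbc1d1 of this list was at 1.02 (adjusted p = 0.0459). Pdk4, a fasting-responsive kinase of pyruvate dehydrogenase, was at 485 against 300 TPM with SW033291 on average (log2 difference 1.14, SE 0.62, limma adjusted p = 0.534).

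Genes that respond to hormones, temperature and activity bear on the clock because these signals reset it. Of 9 glucocorticoid-responsive genes none passed, with medians of 0.16, 0.05 and 0.64 in the 3 comparisons. Without aged vehicle batch 1 replicate 4, all 9 were positive with age and none passed. Their median was then 0.28, beside 0.01 for all genes. In the authors' deposited table of age, Mt2 of this list was at 2.81 (SE 0.76, DESeq2 adjusted p = 0.011). Fkbp5 was higher in batch 2 by 1.12 (SE 0.29, limma adjusted p = 0.062). In the authors' deposited SW033291 table Fkbp5 was at 0.80 (SE 0.20, unadjusted DESeq2 p = 8.53e-05), while Klf9, Sgk1, Ddit4 and Mt2 of this list were negative. Of 8 temperature-responsive genes none passed, with medians of 0.06, -0.22 and 0.05. The chaperone Hsp90aa1 passed between batches once aged vehicle batch 1 replicate 4 was left out (0.64, limma adjusted p = 0.0324), as did 13.8% of all genes. Of 9 immediate early genes 7 were tested and none passed, with medians of 0.61, -0.31 and -0.25. Junb, an immediate early transcription factor, was at 18.3 against 8.21 TPM in aged against young muscle of batch 1 (log2 difference 1.07, SE 0.29, limma adjusted p = 0.143). In the authors' deposited table Junb was at 0.94 (adjusted p = 0.00302) and Egr1 at 1.12 (adjusted p = 0.0194). With aged vehicle batch 1 replicate 4 left out, Jun passed with age (0.98, limma adjusted p = 0.0267) and Nr4a1 passed between batches (-1.10, limma adjusted p = 0.0091). The shares of all genes that passed were then 0.775% with age and 13.8% between batches.

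Cell type markers moved with the comparisons as follows, and their part in the clock values was not tested. With age, Col1a1 (9.93 against 46.2 TPM) and Col3a1 (9.85 against 40.4 TPM) fell among 7 tested fibro-adipogenic progenitor markers, Thbs4 (23.5 against 72.5 TPM) fell among 4 tested tenocyte markers, and Hba-a1 (77.5, 115 and 899 TPM in aged against 0 to 19.6 TPM in young libraries) rose among 7 tested red cell markers (limma adjusted p of 0.0155, 0.0314, 0.0148 and 0.018). Globin genes have near-identical copies, so their single values are uncertain: Hba-a2 was lower in aged replicates 2 and 3 (79.0 and 140 TPM) than in every young library (171 to 337 TPM). Without aged replicate 4, 5 of the 7 red cell markers were negative. Hbb-bt and Hbb-b2 had the same level in each of the 13 libraries, so the same values enter this count and the red cell sums under both names. With SW033291 no marker passed. Between batches, Myh4 rose and Hbb-bs, a globin listed at 0 in all 3 vehicle libraries of batch 2, fell. No neutrophil, adipocyte, endothelial, macrophage, smooth muscle or Schwann cell marker passed in any comparison of all 13 libraries. Col1a1, Col3a1, Thbs4 and Hba-a1 also passed with age when aged vehicle batch 1 replicate 4 was left out, and so did the fibre marker Des (0.45). Between batches without it, the neutrophil marker Lcn2 (2.22) and the smooth muscle marker Rgs5 (1.06) passed as higher and the fibre marker Acta1 (-0.32) as lower. Of all tested genes, 0.775% passed with age and 13.8% between batches without that library. Neutrophil sums reached 1751 TPM in aged vehicle of batch 1, 769 TPM in aged vehicle of batch 2 and 231 TPM with SW033291, each in 1 library.

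Arntl was compared with each of the other 9 genes over the 13 libraries, by Pearson's r and Spearman's rho of log2(TPM + 1) with 100000 permutations and adjustment over the 9 pairs. None passed. The strongest was Clock (r = 0.78, permutation p = 0.00917, adjusted p = 0.0825; rho = 0.41, permutation p = 0.164, adjusted p = 0.408). Leaving out the 2 libraries farthest from the median of Arntl, aged vehicle batch 1 replicate 4 and SW033291 replicate 6, gave r = 0.25, so that the relation rests on those libraries. Per1 (r = -0.60, permutation p = 0.0358, adjusted p = 0.104; rho = -0.27, permutation p = 0.361) and Per2 (r = -0.58, permutation p = 0.0444, adjusted p = 0.104; rho = -0.32, permutation p = 0.28) were opposite to Arntl, and their r without those 2 libraries was -0.30 and -0.04. The other 6 pairs had adjusted permutation p-values from 0.104 to 0.597. Median-of-ratios scaling called 2 pairs, Per2 (r = -0.76, adjusted p = 0.0413) and Cry2 (r = -0.68, adjusted p = 0.0413).

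Within batches the values did not hold together. Arntl and Dbp had r = -0.91 over the 7 libraries of batch 1 and r = 0.69 over the 6 of batch 2. Arntl and Per2 had r = -0.97 and 0.59, and Arntl and Nr1d1 had r = -0.61 and 0.88. Arntl and Clock had the same sign in both, 0.91 and 0.70. Batch 1 holds the library that stands apart. Over the 6 libraries of batch 1 without it, the r of Arntl was 0.23 with Clock, -0.42 with Dbp, -0.79 with Per2 and -0.06 with Nr1d1. Over the 12 libraries without it, the r of Arntl and Dbp was 0.48, compared with -0.26 with it. These are values over libraries that share groups and are given as a description.

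**Figure D5:**
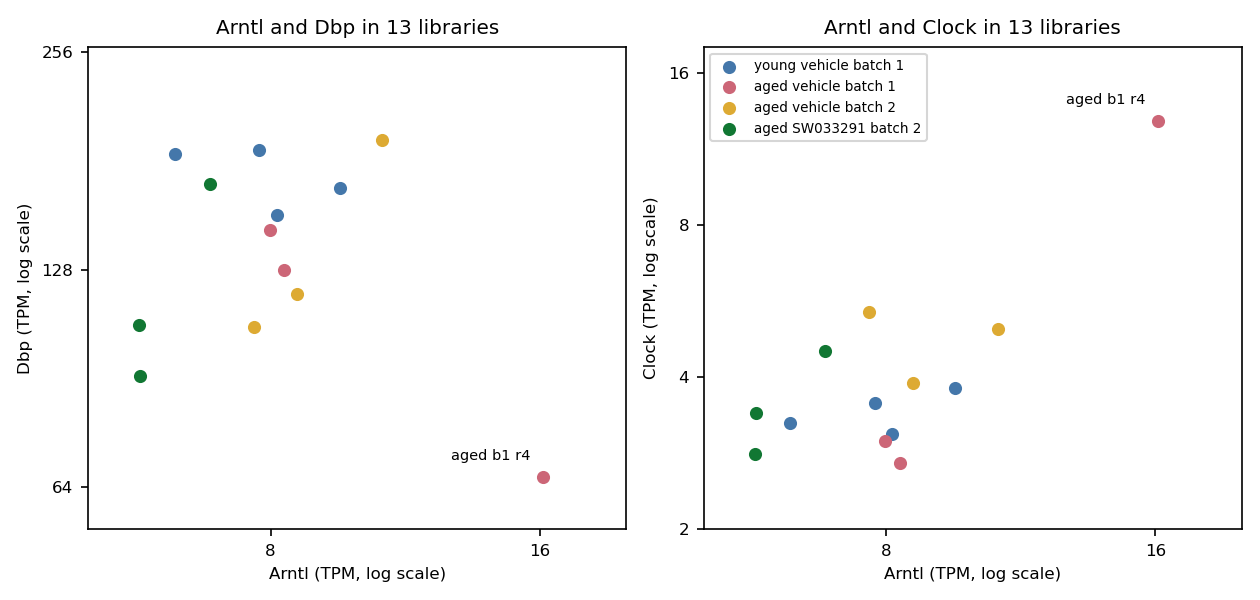
Dbp (left) and Clock (right) against Arntl in the 13 libraries, each axis in TPM on a log scale, coloured by group. The library marked aged b1 r4, with Arntl at 16.1 TPM, lies apart from the other 12 in both panels, with Dbp at 66.2 TPM and Clock at 12.85 TPM.

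Among the other tested genes, those most like Arntl over the 13 libraries were Ppp1r27 (r = 0.91), Nabp1 (0.89), Tmem167 (0.86), Spcs1 (0.86) and Ikzf2 (0.85). Each was at its highest in aged vehicle batch 1 replicate 4, and without it their r was 0.85, 0.75, 0.69, 0.65 and 0.60. Among those most like Dbp were B3gnt1 (r = 0.90), Tapbp (0.88), Pomt1 (0.88) and Abcb6 (0.87), each lowest in the same library, with r of 0.85, 0.78, 0.79 and 0.76 without it. These genes were picked as the highest of 11876, so the values describe a ranking.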

How the data were processed

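RNA of quadriceps was measured in 13 libraries. The authors deposited TPM values for 24015 genes, made with STAR, RSEM and mm9 per the submitters' processing notes (versions not given in the sources used here). TPM keep no depth, so the depth and counting error of single libraries are unknown. The gene names of that table stood on wrong rows. After 27 names turned into dates were restored, the names were sorted and set on the rows as they stand. The correlation of log2 differences of SW033291 with the authors' deposited table was -0.01 as deposited and 0.93 restored (6371 genes), and 0.906 to 0.956 in blocks around the 10 genes.

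Per the file headers, the authors' DESeq2 tables hold a mean level (a signal of normalised counts), a log2 fold change with its SE, a statistic (a score) and a p-value; 813 genes are in the age table and 24013 in the SW033291 table.

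The scale of analysis was log2(TPM + 1). limma 3.58.1 (R 4.3.3) was fitted to genes that reached 1 TPM in 3 libraries, with 1 coefficient per group over all 13 libraries, a variance trend, and Benjamini-Hochberg adjustment over 11876 genes at 0.05. Folds of low genes are understated on this scale. Correlations used Python 3.11.15 and scipy 1.17.1. The fit was tested on simulated data. The genes, the lists and the tests were chosen with earlier results of these data known. The text names all 10 clock genes, of each list the called genes and some of the 3 with the smallest p, and the 5 genes most like Arntl and Dbp, except for some results that are not reported here. Genes singled out for their level in 1 library (Rora, Usp2, Ciart, Tsc22d3, Zbtb16, Klf9, Hba-a2) were chosen after their values were seen. Alternatives included other pseudocounts, filters, scalings and left-out libraries.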

Additional observations from a re-analysis of the deposited data

How the results depend on the processing

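With age, calls numbered 54, and 58 with log2(TPM + 0.1), 27 without the filter, 24 with only the 2 groups, 31 without the variance trend, 11 with the replicate block, 297 with both aged groups pooled and 383 with them pooled without aged vehicle batch 1 replicate 4; leaving out 1 library gave 19 (young replicate 1 or aged replicate 2) to 92 (aged replicate 4). The split of higher to lower calls was 44 to 10, and 36 to 20 with median-of-ratios scaling, 41 to 30 with quantile normalization, 35 to 28 without the 20 most abundant genes and 33 to 21 without aged vehicle batch 1 replicate 3. With SW033291, calls numbered 0, and 4 with log2(TPM + 0.1), 1 without the trend and 4 without the 3 neutrophil-rich libraries; leaving out 1 library gave 0 to 1 (SW033291 replicate 4), and the replicate block 0. Between batches, calls numbered 267 (204 higher, 63 lower), and 144 with median-of-ratios scaling (46 higher, 98 lower), 98 with quantile normalization (53 higher, 45 lower), 1 with only the 2 groups, 112 without the trend, 70 with the replicate block and 1037 without the 3 neutrophil-rich libraries; leaving out 1 library gave 18 (batch 1 replicate 2), 21 (batch 2 replicate 2 or 3), 478 (batch 2 replicate 8) and up to 1643 (batch 1 replicate 4). Relations of Arntl numbered 0, and 2 with median-of-ratios scaling.

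Of 30 differences of clock genes, 16 changed sign somewhere. With age, the values that did were Clock -0.20, Per1 0.38, Per2 0.030, Per3 -0.023 and Nr1d2 -0.46 without the 3 neutrophil-rich libraries; Per3 -0.024 and Nr1d2 -0.044 with median-of-ratios scaling, -0.019 and -0.057 with quantile normalization, and -0.048 and -0.070 without the 20 most abundant genes; Per3 -0.032 and Cry1 0.018 with the replicate block; Per2 0.22 and Cry1 0.18 with both aged groups pooled; Per2 0.47, Cry1 0.19 and Nr1d2 -0.18 with them pooled without aged replicate 4. With SW033291 they were Per1 0.080, Cry1 0.047 and Cry2 0.00025 with median-of-ratios scaling, Per1 0.057 and Cry1 0.066 with quantile normalization, Per1 0.29 without the 3 neutrophil-rich libraries, and Per1 0.96, Per2 0.17, Cry2 0.15 and Dbp 0.55 with the replicate block. Between batches they were Arntl 0.14, Clock 0.68, Per1 -1.07 and Nr1d2 0.53 without those libraries, Per1 -0.13 with median-of-ratios scaling and -0.077 with quantile normalization, and Clock 0.30, Per1 -0.24, Nr1d2 0.30 and Dbp -0.17 with the replicate block.

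Leaving out 1 library, the age differences ranged from -0.20 to 0.75 for Clock, -0.95 to 0.38 for Per1, -0.55 to 0.030 for Per2, -0.035 to 0.18 for Per3, -0.14 to 0.056 for Cry1 and -0.46 to 0.28 for Nr1d2; those with SW033291 from -0.39 to 0.23 for Per1 and -0.44 to 0.072 for Dbp; and those between batches from -0.35 to 0.11 for Arntl, -0.38 to 0.57 for Clock, -0.78 to 0.55 for Per1, -0.26 to 0.47 for Nr1d2 and -0.017 to 0.54 for Dbp. The r of Arntl ranged from -0.025 to 0.70 with Nr1d2 and from -0.45 to 0.48 with Dbp. Deviations from the group means correlated at -0.15 to 0.28 between same-numbered libraries of different groups. Pairs with different numbers were not set beside them, so these values cannot decide whether a number marks a shared factor. Per2 between batches lost its call in the block (limma adjusted p = 0.109). In batch 2 the titles number libraries over both groups. The SW033291 and vehicle libraries of that batch therefore share no number. The block pairs none of them directly, and its SW033291 values run through the other groups. The cause of these changes was not tested. Since TPM keep no depth, limits from counting are unknown.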
